A study of Homo sapiens with 6 samples.

Results

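ATP-binding cassette (ABC) transporters were examined in PANC-1, a human cell line from a pancreatic ductal carcinoma, after treatment with maslinic acid (MA), a plant triterpenoid. The members were all rows of the deposited gene table whose symbol is ABC, a subfamily letter from A to G and a number, which gave 47 of 58825 rows, under 46 symbols because ABCF2 has 2 entries. RNA was sequenced from 3 PANC-1 cultures treated with 40 μM MA for 24 h and from 3 untreated PANC-1 cultures, described as 0 μM for the same 24 h. The labels call the control cultures untreated, whereas the study's general culture methods name DMSO, the solvent, as the control for MA. Totals of the estimated counts ranged from 56978375 to 70275355, and the ABC members took 0.147% to 0.157% of them. All samples came from 1 established cell line, and the replicates are described as biological.

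ABC proteins couple the binding and hydrolysis of ATP to movement of a substrate across a membrane. Members of subfamilies A and G export cholesterol and phospholipids, and ABCA1 is the pump that loads cholesterol onto apolipoprotein A-I and is a target of the oxysterol receptors called liver X receptors (LXR). ABCB1, the MRP proteins of subfamily C and ABCG2 expel drugs and conjugated metabolites and are known for their part in drug resistance, whereas subfamilies E and F lack membrane domains and act on ribosomes.

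The identity of the cells was checked first. KRT8, KRT18, VIM and SOX9, which epithelial or PANC-1 cells express, had mean levels between 13.5 and 665 FPKM in both groups. FPKM is fragments per kilobase of transcript, scaled to sequencing depth. KRT7 and CDH1 were low, at means of 1.57 and 0.893 FPKM after MA and 2.03 and 0.966 FPKM without it. KRT19 and EPCAM had group means under 0.1 FPKM. SOX9, a ductal transcription factor, was lower in MA treated PANC-1, with a log2 fold change of -0.32 and an unadjusted p of 0.00936 (edgeR). Of 17 markers of acinar, islet, stromal, endothelial and blood cells, 13 had a mean FPKM under 0.1 and 6 of these had no count in any sample. CD68, COL3A1 and COL1A1 were above 1 FPKM; CD68 was the most abundant, with a mean of 30.2 FPKM in MA treated PANC-1 and 31.1 in PANC-1, and PTPRC, PECAM1 and the insulin gene INS were at or near 0. The summed level of the 17 markers was 44.4, 54.0 and 41.2 FPKM in the MA treated samples and 45.5, 58.8 and 52.3 in the untreated ones, so the groups overlapped. COL3A1 was at a mean of 12.3 FPKM after MA and 16.0 FPKM without it, with a log2 fold change of -0.33 that did not pass the test, and the part of these transcripts in the results was not tested.

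MA replicate 2 stood apart from the other samples. Among the 28 ABC members that could be tested, it held the highest FPKM of the 6 samples for 11 and the lowest for another 11, and over all 17774 tested genes it was highest for 21.4% and lowest for 35.1%. Values without it stand beside many of the log2 fold changes of ABC members. Without it, 5 of the 6 tested PANC-1 identity genes were lower after MA at an unadjusted p of 0.05 (edgeR), against 1 with it, where 5.81% of all tested genes were lower without it and 5.86% with it; KRT8 for example went from -0.17 to -0.39 on the log2 scale. Their part in the results was not tested.

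Of the 47 members, 20 had a mean of at least 1 FPKM, 19 were below the 0.1 FPKM needed for testing, and 1 passed the unadjusted test between the groups. ABCA1 after MA stood at 0.460 times its untreated level (95% interval 0.329 to 0.642, n = 3 against 3). ABCC1, the drug efflux pump MRP1 and the pump with the highest level, had a log2 fold change of 0.00 with a 95% interval of -0.25 to 0.25. By edgeR's quasi-likelihood test, 1 of 28 members (3.57%) passed an unadjusted p of 0.05, against 11.2% of all tested genes. In the lower direction the member count was 1, where 5.86% of all tested genes passed, and in the higher direction it was 0, where 5.37% passed. DESeq2 called 2 members at that threshold, where 12.1% of all tested genes passed, and limma 1, where 11.0% passed; none of these members was higher. With a 2-fold change also required, the criterion of the study, the count was again 1 of 28, against 1.92% of all tested genes. No member passed a Benjamini-Hochberg adjusted p of 0.05 in edgeR, where 0.0394% of all tested genes, 7 in number, did so. A count of 1 is too small to set either share apart from its background, and 24 of the 28 members lay within a 1.5-fold change, as did 14792 of the 17774 tested genes.

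**Figure D1:**
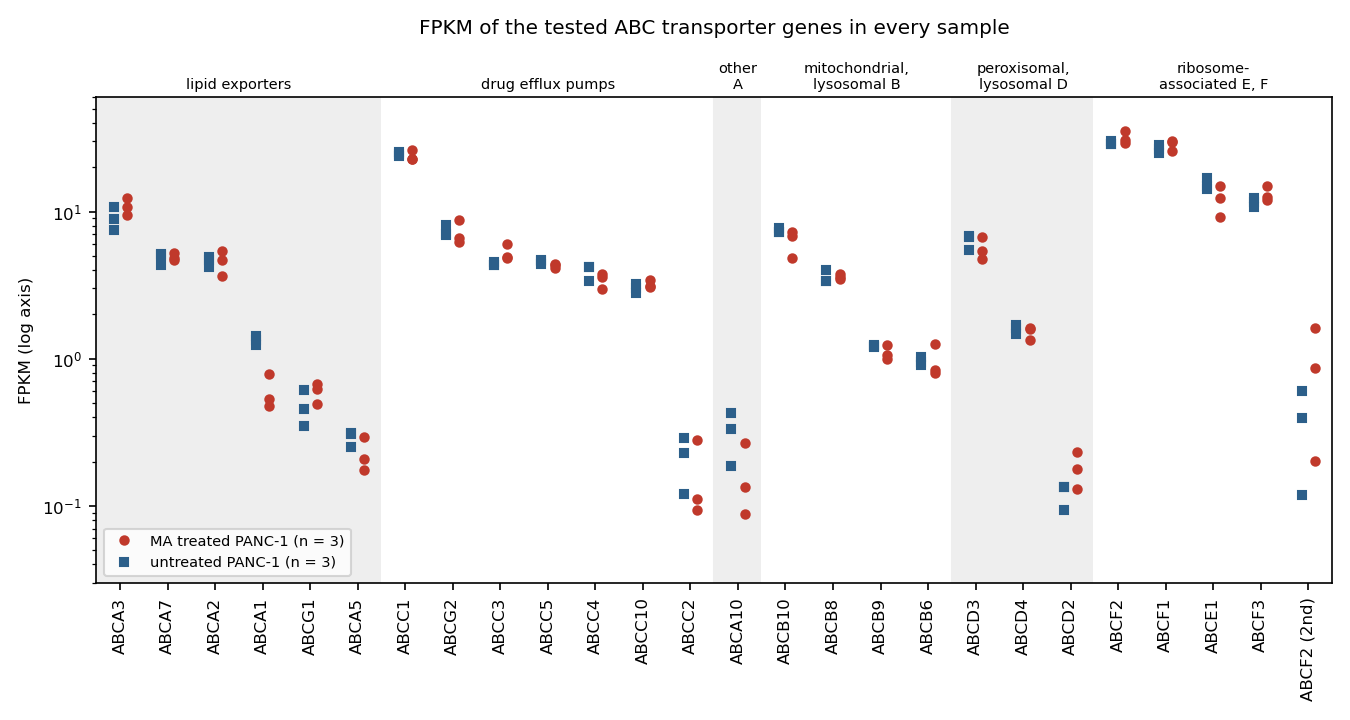
FPKM on a log axis of 26 of the 28 tested ABC members in each of the 3 MA treated PANC-1 samples (circles) and 3 untreated PANC-1 samples (squares), grouped by role and ordered by mean level; "2nd" is the second ABCF2 entry. ABCA1 is the lipid exporter whose MA treated samples all lie below the untreated ones.

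ABCA1 (ENSG00000165029) lies on the minus strand of chromosome 9 in GRCh38, at chr9:104781006-104928155. The 250 bases before its start are shown because it was the member that differed, with capitals for the letters searched for:
ABCA1: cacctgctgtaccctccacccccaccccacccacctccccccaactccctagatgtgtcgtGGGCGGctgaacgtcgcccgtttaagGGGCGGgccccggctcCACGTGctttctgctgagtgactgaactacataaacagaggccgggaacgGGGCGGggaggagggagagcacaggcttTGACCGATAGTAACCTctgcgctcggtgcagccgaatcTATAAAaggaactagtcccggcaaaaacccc
This is chr9:104928156-104928405, read 5′ to 3′ on the minus strand, from RefSeq on GRCh38.p14. Both strands were searched for CACGTG (E-box), GGGCGG (GC box), TATAAA and a pair of repeats, AGGTNA and NGGTCA, separated by 4 bases, the layout that LXR dimers bind. ABCA1 held the E-box at -147 to -142, GC boxes from -189, -163 and -97, TATAAA at -31 to -26 and the spaced repeats, on the opposite strand, at -69 to -54, counted from the start of the gene. The spaced repeats occurred in 0.0797% of 35116 promoter windows of the same length, the E-box in 6.34%, TATAAA in 10.7% and the GC box in 42.6%. Windows were at hand for 35 of the 46 ABC symbols, and ABCC1 and ABCG1 were not among these. Of the 35, ABCA1 alone held the spaced repeats. ABCA1 was already known as an LXR target, and the open letters (N) of the searched pattern admit its site. Its match and the rarity of the pattern elsewhere are therefore no test. A letter match is a description and does not show binding.

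The level of ABCA1 was 0.787, 0.480 and 0.531 FPKM in the MA treated samples and 1.23, 1.33 and 1.43 FPKM in the untreated samples. Every MA treated sample lay below every untreated sample, and MA replicate 1 was the highest of its group. The estimated counts behind these levels were 600, 414 and 416 after MA and 1167, 1178 and 1138 without it. The group means were 0.599 ± 0.164 FPKM (SD, n = 3) and 1.33 ± 0.0961 FPKM (SD, n = 3). The log2 fold change was -1.12 with an SE of 0.20, an unadjusted p of 0.000842 and a Benjamini-Hochberg adjusted p of 0.222 (edgeR). DESeq2 gave the same log2 fold change with an adjusted p of 0.000125, and called 263 of all tested genes at an adjusted p of 0.05, so the adjusted call depended on the tool. Across 9 alternatives with all samples the adjusted p ran from 0.000125 to 0.385, and the exact permutation test gave p = 0.1, the smallest that 3 samples against 3 allow. Without MA replicate 2 the log2 fold change was -1.02, and it ran from -1.35 to -1.02 when each sample was left out in turn. In bulk RNA, fewer cells that express a gene and less of its RNA per cell cannot be told apart. An antisense RNA at the same locus, AL359182 (ENSG00000226334), overlaps the start of ABCA1 at a mean of 0.506 FPKM, with a log2 fold change of -0.06. Its estimated counts were 17, 24 and 10 after MA and 30, 23 and 8 without it, against 414 to 1178 for ABCA1. Although the libraries were made with dUTP, the sources used here do not state whether reads were assigned by strand. It is therefore not known whether reads of AL359182 were counted apart from those of ABCA1 where both overlap. The same limit holds for other members, among them ABCC10 and ABCB9, at means of 3.10 and 1.16 FPKM. Their antisense genes DLK2 and OGFOD2 had higher means, 5.00 and 3.22 FPKM.

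No other lipid exporter passed the test. Of the 11 lipid exporters, 6 reached the mean of 0.1 FPKM needed for testing. At an unadjusted p of 0.05 (edgeR), 1 was lower and 0 were higher, where 5.86% of all tested genes were lower and 5.37% higher. A count of 1 of 6 is too small to set apart from that share. Whatever the p, the log2 fold change was above 0 for 4 of the 6 and below 0 for 2, ABCA1 and ABCA5. The median of the 6 was 0.04, against 0.00 over all tested genes, and -0.09 without MA replicate 2. ABCA3, a phospholipid transporter of lamellar bodies, was the most abundant lipid exporter, at 10.8, 12.4 and 9.50 FPKM after MA and 8.94, 10.7 and 7.54 FPKM without it. Its groups overlapped, and its log2 fold change of 0.31 had a 95% interval of -0.11 to 0.72. It was 0.16 without MA replicate 2 and 0.44 without PANC-1 replicate 2, when it passed with an unadjusted p of 0.0459 (edgeR). With the replicate number as a block, ABCA3 also passed, at 0.31 with an unadjusted p of 0.0141 and an adjusted p of 0.389 (edgeR). ABCA7, a phospholipid exporter related to ABCA1, was at 4.71, 5.23 and 4.83 FPKM after MA and 4.30, 5.11 and 5.10 FPKM without it, with a log2 fold change of 0.07 (95% interval -0.23 to 0.36), or -0.02 without MA replicate 2. ABCA2, an endosomal and lysosomal sterol transporter, had means of 4.55 ± 0.855 and 4.62 ± 0.369 FPKM (SD, n = 3 each) and a log2 fold change of 0.02, or -0.15 without MA replicate 2.

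ABCG1, which passes cholesterol to high-density lipoprotein and is, like ABCA1, an LXR target, is described here although it was picked after its values were seen. Its level was 0.626, 0.676 and 0.494 FPKM after MA and 0.455, 0.608 and 0.347 FPKM without it. The groups overlapped, and the log2 fold change of 0.39 did not pass the test (95% interval -0.26 to 1.04) and was 0.25 without MA replicate 2. When each sample was left out in turn, it ran from 0.21 without PANC-1 replicate 3 to 0.62 without PANC-1 replicate 2. Within each sample, ABCA1 stood at 2.71, 2.19 and 4.11 times ABCG1 in the untreated samples and at 1.26, 0.710 and 1.08 times in the MA treated samples. These ratios did not overlap between the groups; they carry the lower level of ABCA1 and are no separate evidence of it. ABCA1 made up 6.16%, 5.79% and 7.46% of the summed lipid exporter FPKM without MA and 3.60%, 1.96% and 2.74% with it. The sum itself overlapped between the groups, at 21.9 ± 2.53 FPKM after MA and 20.7 ± 2.03 FPKM without it (SD, n = 3 each), and ABCA3 supplied between 39.4% and 50.7% of it. The remaining tested lipid exporter, ABCA5, had a log2 fold change of -0.36 (95% interval -0.91 to 0.20), or -0.24 without MA replicate 2 and -0.57 without MA replicate 3, when it passed with an unadjusted p of 0.0432 (edgeR). ABCG4, ABCG5, ABCG8, ABCA12 and the bile phospholipid exporter ABCB4 stayed below the limit for testing, with ABCG4 the highest at a mean of 0.0958 FPKM.

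**Figure D2:**
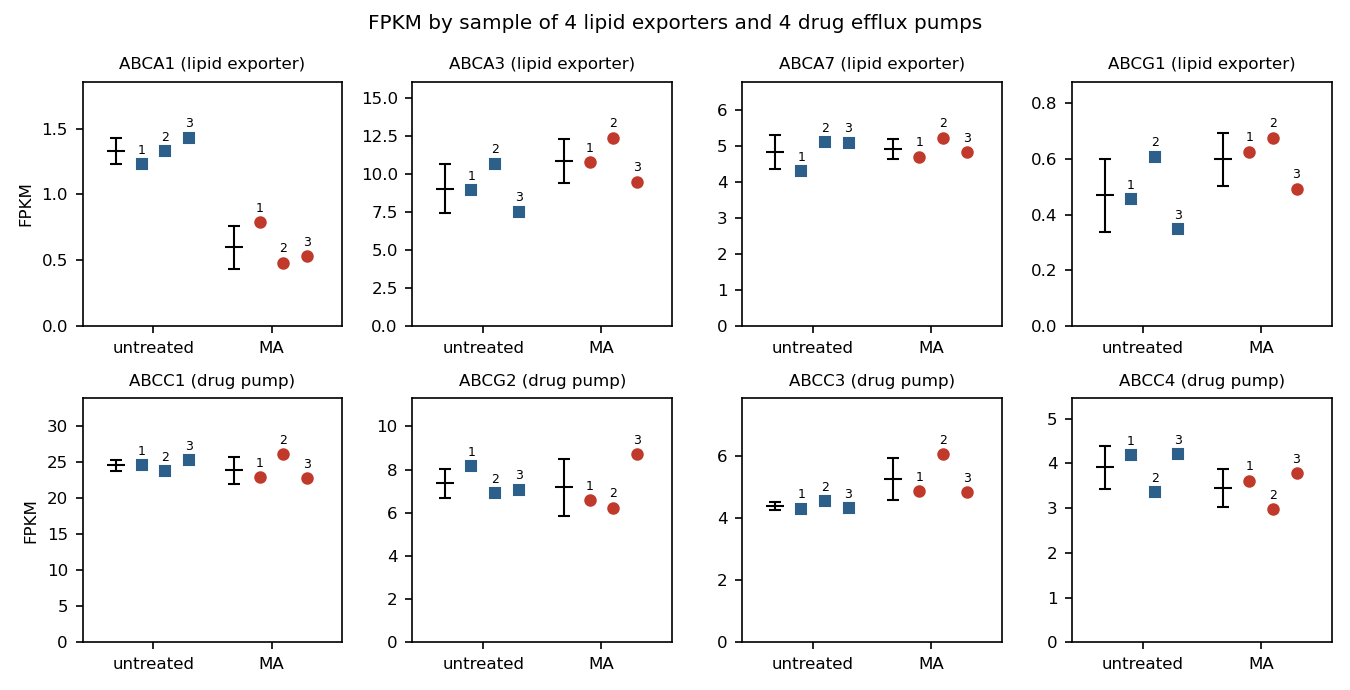
FPKM of 4 lipid exporters (top) and 4 drug efflux pumps (bottom) in each sample, numbered by replicate, with the group mean and SD (n = 3) to the left of the points; every axis starts at 0. ABCA1 and ABCC3 are the panels in which the groups do not overlap, ABCA1 being lower and ABCC3 higher after MA, and only ABCA1 passed an unadjusted p of 0.05.

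Drug efflux pumps were the more abundant of these 2 groups by summed level, and none of them passed the test. Their summed level was 47.5 ± 1.33 FPKM after MA and 48.1 ± 1.40 FPKM without it (SD, n = 3 each), and the lipid exporters stood at 0.461 ± 0.0489 and 0.432 ± 0.0546 times that sum. Of the 9 pumps 7 were tested, and 0 passed an unadjusted p of 0.05 in edgeR, DESeq2 or limma. Over all tested genes, 11.2%, 12.1% and 11.0% passed in these tools. The median log2 fold change of the pumps was -0.01 (-0.07 without MA replicate 2). All 7 lay within a 1.5-fold change, as did 14792 of the 17774 tested genes, so neither count sets the pumps apart. The lipid exporters spanned log2 fold changes from -1.12 to 0.39 and the drug efflux pumps from -0.37 to 0.30.

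ABCC1 (ENSG00000103222, chr16:15949577-16143074, plus strand) was at 22.9, 26.1 and 22.8 FPKM in the MA treated samples and at 24.6, 23.8 and 25.3 FPKM in the untreated samples. The groups overlapped, and MA replicate 2 held the highest value. The 95% interval of its fold was 0.843 to 1.19, and without MA replicate 2 its log2 fold change was -0.11. ABCC1 supplied 47.8% to 53.5% of the summed drug efflux pump FPKM. The ratio of ABCC1 to ABCA1 was 20.0, 17.9 and 17.7 without MA and 29.1, 54.4 and 42.9 with it. It did not overlap between the groups, as ABCA1 itself did not.

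ABCG2, the breast cancer resistance protein, was at 6.59, 6.23 and 8.70 FPKM after MA and 8.15, 6.91 and 7.06 FPKM without it. MA replicate 3 was the highest sample and the other MA treated samples the lowest, and the log2 fold change was -0.01 (95% interval -0.34 to 0.32), or 0.05 without MA replicate 2. ABCC3, the conjugate exporter MRP3, was at 4.88, 6.06 and 4.85 FPKM after MA and 4.31, 4.55 and 4.32 FPKM without it. All MA treated samples lay above all untreated ones, but the log2 fold change of 0.30 did not pass the test, with an unadjusted p of 0.0655 (edgeR) and a 95% interval of -0.03 to 0.63. Without MA replicate 2, its highest sample, the log2 fold change was 0.15, and without MA replicate 3 it was 0.38 and passed with an unadjusted p of 0.0364 (edgeR). ABCC4 and ABCC5, which export cyclic nucleotides, and the related ABCC10 had log2 fold changes of -0.15, -0.05 and 0.12, that of ABCC4 being -0.08 without MA replicate 2. ABCC2, the canalicular conjugate pump, was low, between 0.0932 and 0.289 FPKM, and its log2 fold change of -0.37 had a 95% interval of -1.54 to 0.81, which includes a 2-fold difference, and ran from -0.99 without MA replicate 1 to -0.09 without PANC-1 replicate 1.

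The classical multidrug pump ABCB1 (P-glycoprotein), singled out after its values were seen, was close to the limit of detection in these cells. It had 7, 22 and 0 estimated counts after MA and 15, 19 and 4 without it, at most 0.0480 FPKM in any sample, and was not tested; ABCC11 was similarly low at a mean of 0.0217 FPKM. The transcript of ABCC1 was therefore the leading drug pump transcript in both groups by level per length.

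**Figure D3:**
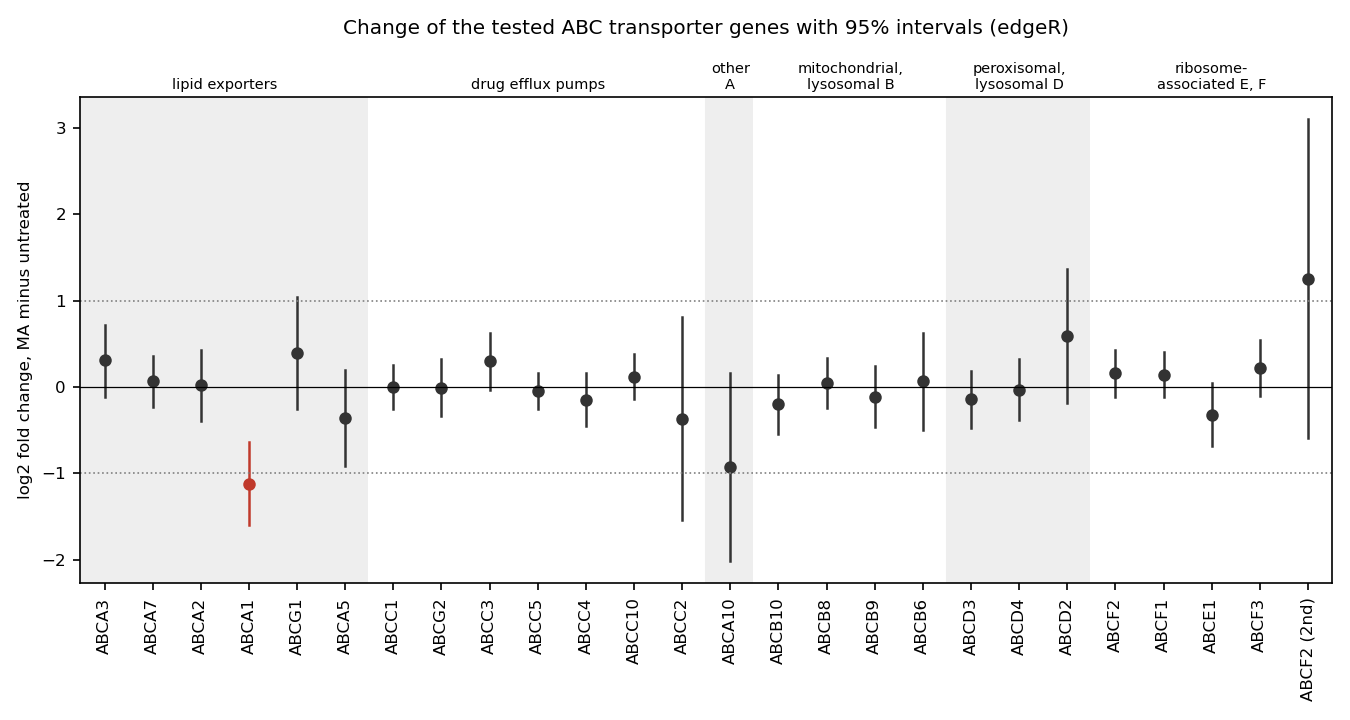
Log2 fold change of 26 of the 28 tested ABC members, MA treated minus untreated PANC-1, with its 95% interval from edgeR (n = 3 against 3), grouped by role; red marks an unadjusted p under 0.05 and dotted lines mark 2-fold. ABCA1 is the member shown whose interval excludes 0, and ABCA10 and the second ABCF2 entry have wide intervals that include it.

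The family's 2 highest levels belonged to ribosome-associated members, ABCF2 and ABCF1, ahead of ABCC1. ABCF2 was at 30.8, 35.4 and 29.2 FPKM after MA and 28.9, 28.9 and 30.0 FPKM without it. ABCF1, which takes part in translation initiation, had means of 28.5 ± 2.43 and 26.5 ± 1.70 FPKM (SD, n = 3 each). Their log2 fold changes were 0.16 and 0.14, or 0.03 and 0.06 without MA replicate 2, and neither passed the test. ABCE1, the ribosome recycling factor, was at 12.3, 9.24 and 14.8 FPKM after MA and 14.9, 14.2 and 17.0 FPKM without it. MA replicate 2 was its lowest sample, the groups overlapped, and its log2 fold change of -0.32 had a 95% interval of -0.68 to 0.05. It was -0.18 without that sample and -0.46 without MA replicate 3, when it passed with an unadjusted p of 0.0143 (edgeR). With the replicate number as a block, ABCE1 also passed, at -0.33 with an unadjusted p of 0.0224 and an adjusted p of 0.389 (edgeR). ABCF3 followed at a log2 fold change of 0.22 (95% interval -0.10 to 0.54), or 0.08 without MA replicate 2. The second ABCF2 entry (ENSG00000285292) overlaps the main entry (ENSG00000033050) on the same strand, so reads could be split between them; it ranged from 0.119 to 1.61 FPKM, and its log2 fold change of 1.25 had an interval of -0.59 to 3.10. When each sample was left out in turn it ran from 0.52 without MA replicate 1 to 1.78 without PANC-1 replicate 2, and it passed an unadjusted p of 0.05 only without MA replicate 2, at 1.72 with an unadjusted p of 0.0427 (edgeR).

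None of the 5 members of the mitochondrial and lysosomal subfamily B group passed the test, where 11.2% of all tested genes did. ABCB10, which serves heme synthesis, was at 6.86, 4.81 and 7.29 FPKM after MA and 7.27, 7.24 and 7.71 FPKM without it. Its lowest value was in MA replicate 2, the groups overlapped, and its log2 fold change was -0.20, or -0.07 without that sample. ABCB8, another mitochondrial member, had means of 3.61 ± 0.152 and 3.59 ± 0.381 FPKM (SD, n = 3 each) and a log2 fold change of 0.05 (95% interval -0.24 to 0.34), or -0.02 without MA replicate 2. ABCB6 and ABCB9, the least abundant of the group, had log2 fold changes of 0.07 and -0.11, or -0.21 and -0.25 without that sample.

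None of the 4 members of the peroxisomal and lysosomal subfamily D group passed the test either, against the same 11.2% of all tested genes. ABCD3, a peroxisomal transporter of branched-chain and other acyl-CoA esters, was at 5.37, 4.74 and 6.69 FPKM after MA and 6.78, 5.46 and 6.70 FPKM without it. The groups overlapped, and the log2 fold change was -0.14 (95% interval -0.48 to 0.19), or -0.07 without MA replicate 2. ABCD4, which serves lysosomal cobalamin release, had a log2 fold change of -0.03 (95% interval -0.38 to 0.32), or -0.13 without MA replicate 2. ABCD2, a peroxisomal fatty acid transporter, was low, with a log2 fold change of 0.59 (95% interval -0.18 to 1.36). When each sample was left out in turn, it ran from 0.38 without MA replicate 3 to 0.75 without MA replicate 2. Over the whole family, 4 of 28 members (14.3%), ABCA1, ABCC3 and ABCC5 among them, had FPKM values that did not overlap between the groups, against 19.9% of all tested genes. ABCC5, picked after its values were seen, differed little, at 4.38, 4.16 and 4.32 FPKM after MA and 4.59, 4.39 and 4.67 FPKM without it.

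Of the 6 other members of subfamily A, only ABCA10 was tested, a gene of the chromosome 17 cluster. It was at 0.134, 0.0885 and 0.266 FPKM after MA and 0.333, 0.428 and 0.186 FPKM without it, so the groups overlapped. Its log2 fold change of -0.92 had an unadjusted p of 0.0840 (edgeR) and of 0.0499 in DESeq2, with a 95% interval of -2.01 to 0.16. When each sample was left out in turn it ran from -1.44 to -0.64, with an unadjusted p under 0.05 without MA replicate 3 (0.0147) and without PANC-1 replicate 3 (0.0389). ABCA13 and ABCA8 followed at means of 0.0437 and 0.0142 FPKM. The potassium channel regulators ABCC8 and ABCC9, which form the sulfonylurea receptors, had 4 and 57 counts over all samples. ABCC6, which has pseudogenes that could share its reads, led the remaining members at a mean of 0.0791 FPKM, ahead of the bile salt pump ABCB11 at 0.0128 FPKM and ABCB5 at 0.00106 FPKM. In all, 19 members lay below the limit for testing, and ABCC12 and ABCC13 had no count in any sample, which allows up to 3 counts of the total in each sample, a limit that covers counting error only.

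ABC proteins that carry other symbols gave no call. TAP1 and TAP2, which transport peptides for MHC class I, were at means of 19.5 and 13.7 FPKM after MA and 17.2 and 13.3 FPKM without it. Their log2 fold changes of 0.22 and 0.07 did not pass the test. The chloride channel CFTR was near 0.

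The genes around cholesterol efflux were examined next. Of 25 LXR and cholesterol efflux genes, 21 were tested, and 4 were higher and 0 lower at an unadjusted p of 0.05, with a median log2 fold change of 0.07; over all tested genes 5.37% were higher and 5.86% lower. Without MA replicate 2, 3 were higher and 0 lower, where 4.51% of all tested genes were higher and 5.81% lower. NR1H2 was no longer among the 3, at a log2 fold change of 0.23. LPCAT3, an LXR target that remodels phospholipids, was at 25.8, 24.9 and 22.2 FPKM after MA and 18.0, 18.0 and 20.5 FPKM without it. NPC1 and NPC2, which move cholesterol out of lysosomes, had log2 fold changes of 0.36 and 0.39, with no overlap between the groups. NR1H2, which encodes LXRβ, had a log2 fold change of 0.31 with overlapping groups. Their unadjusted p ran from 0.00664 for LPCAT3 to 0.0464 for NR1H2, and none passed the Benjamini-Hochberg adjusted threshold (edgeR). ABCA1 was thus lower while these 4 genes, picked by their p, were higher. Whatever the p, the log2 fold change was above 0 for 12 of the 21 tested genes and below 0 for 9. The rest of the tested list did not pass, with log2 fold changes from -0.48 for the fatty acid sensor PPARA to 0.70 for APOE, the apolipoprotein E gene; without MA replicate 2 the value of PPARA was -1.54, with an unadjusted p of 0.0513 (edgeR).

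**Figure D4:**
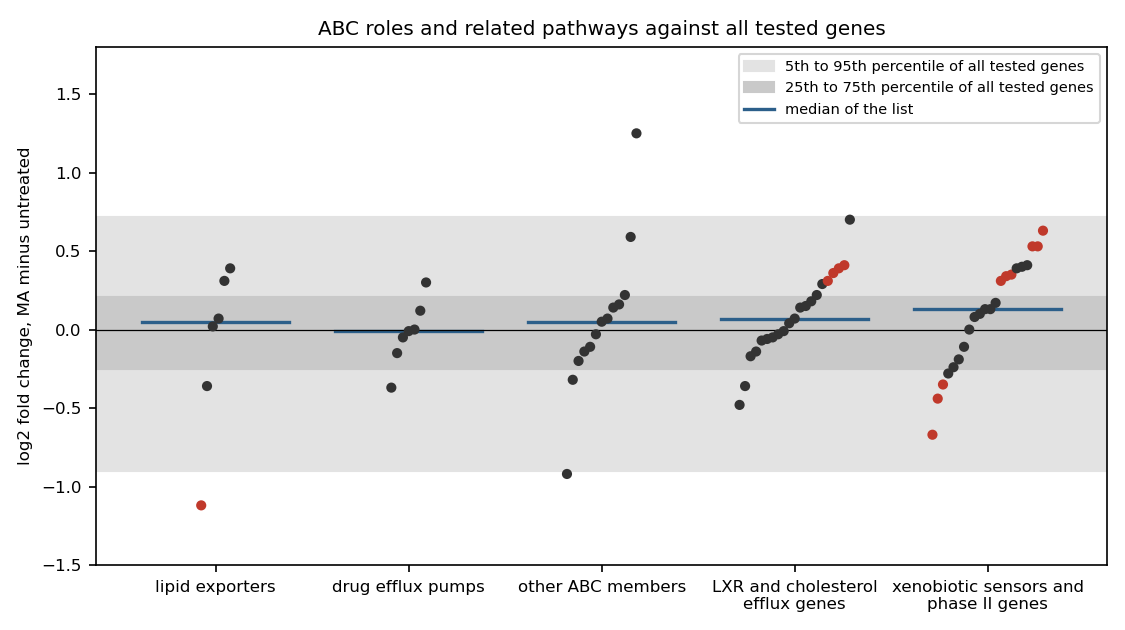
Log2 fold changes, MA treated minus untreated PANC-1, of tested genes in 5 lists, 1 point per gene (26 of the 28 tested ABC members), with the list median as a line, red for an unadjusted p under 0.05 (edgeR), and shading for the spread of all 17774 tested genes. ABCA1 lies below the 5th percentile of all tested genes (-0.90), and the drug efflux pumps lie between -0.37 and 0.30.

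Genes of xenobiotic sensing and detoxification showed calls in both directions. Of 27 such genes, 22 were tested, and 6 were higher and 3 lower at an unadjusted p of 0.05, where 5.37% of all tested genes were higher and 5.86% lower. Without MA replicate 2, 5 were higher and 3 lower, where 4.51% of all tested genes were higher and 5.81% lower. GSTP1 then no longer passed, at a log2 fold change of 0.16. TXNRD1, a thioredoxin reductase, was at 36.6, 37.5 and 35.9 FPKM after MA and 26.9, 24.7 and 26.7 FPKM without it, a log2 fold change of 0.53. EPHX1, HMOX1, SRXN1, GSTM4 and GSTP1, which encode a xenobiotic epoxide hydrolase, heme oxygenase, sulfiredoxin and glutathione transferases, had log2 fold changes of 0.63, 0.53, 0.35, 0.34 and 0.31. The transcripts of 3 stress and xenobiotic transcription factors were lower, with log2 fold changes of -0.67 for HIF1A, -0.44 for AHR and -0.35 for NFE2L2, and each had its lowest value in MA replicate 2. None of the 9 passed the Benjamini-Hochberg adjusted threshold in edgeR. The nuclear receptors NR1I2 and NR1I3, known regulators of ABCB1, had means below 0.1 FPKM in both groups.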

How the data were processed

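RNA-seq of 3 MA treated and 3 untreated PANC-1 cultures was analysed. The authors deposited per gene an FPKM value per sample, normalized by length and depth, and an estimated count, a whole number without normalization; 0.0001 FPKM stands for no reads. The submitters' processing notes name cutadapt 1.9, HISAT2 2.0.4 and StringTie 1.3.4d; poly(A) libraries were made with dUTP. Gene positions are on GRCh38.

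The estimated counts were tested with edgeR 4.0.16 (TMM, quasi-likelihood, no covariates, R 4.3.3) over the 17774 genes averaging 0.1 FPKM or more, with Benjamini-Hochberg adjustment over all of them; the code was tested on simulated data. DESeq2 1.42.0 and limma 3.58.1 on log2(FPKM + 0.1) were among 16 alternatives. Fold changes are log2, MA minus untreated. Genes were named by rule: ABCA1, ABCC1, members with an unadjusted p under 0.05, the 3 most abundant members of each role and pathway genes with an unadjusted p under 0.05; any other gene was added after its values were seen. Values of 2 tested members are not reported here. The members and lists were chosen with earlier results of these data known. P-values measure the spread between these samples.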

Additional observations from a re-analysis of the deposited data

How the results depend on the processing

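ABCA1 kept its direction and an unadjusted p under 0.05 in every alternative that could test it. Among these, the ratio of mean FPKM reused the p of the main edgeR test. Summing genes that overlap on the same strand left the counts of ABCA1 unchanged. Neither was therefore a separate check of its p. ABCA1 was not tested where the mean had to reach 1 FPKM, and its log2 fold change was -0.55 with log2(FPKM + 1), against -1.12. The members with an unadjusted p under 0.05 numbered 1 with edgeR and 2 with DESeq2 (ABCA1 and ABCA10), and 0 where the mean had to reach 1 FPKM. They numbered 1 to 6 when each sample was left out, 6 being without MA replicate 3. Over all tested genes, 12.9% passed where the mean had to reach 1 FPKM. With each sample left out, the share of all tested genes ran from 6.63% without PANC-1 replicate 1 to 18.1% without MA replicate 3. With a 2-fold change as well, the count was 0 with log2(FPKM + 1) and where the mean had to reach 1 FPKM, and 1 to 2 when each sample was left out (2 without MA replicate 2, MA replicate 3 or PANC-1 replicate 3). The median log2 fold change of the drug efflux pumps moved from -0.01 to -0.05 with log2(FPKM + 0.1) and -0.04 with log2(FPKM + 1), library size alone or the ratio of mean FPKM, and ran from -0.07 to 0.05 when each sample was left out. That of the lipid exporters ran from -0.09 to 0.14. The pathway counts without MA replicate 2 were added after seeing the data. The causes were not tested. Of 439 values for single members under the alternatives, 402 kept their direction and side of the threshold, 11 passed it only under the alternative and 26 changed otherwise. The 402 include values that could hardly change. Those by the ratio of mean FPKM reused the main p and could not change side, and most of those from summed overlaps repeat the main counts.

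The replicate numbers were checked for pairing: samples with the same number correlated at 0.0294, 0.0502 and 0.0724 in their deviations from the group means, all under 0.1, though each sample correlated best with its own number. With a replicate block 3 members passed an unadjusted p of 0.05 (ABCA1, ABCA3 and ABCE1), where 12.5% of all tested genes passed. With no filter on low values 45 members could be tested, and ABCA1 was still the member that passed; the members below 0.1 FPKM had at most 378 counts over all samples, which limits the precision of their values.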
